A study of Mus musculus with 12 samples.

Results

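Polyamine synthesis and its control were followed through 9 genes chosen by name. They were Odc1, Amd1, Srm and Sms, which build the polyamines, Oaz1, Oaz2 and Azin1, which set the activity of ornithine decarboxylase, and Sat1 and Smox, which break the polyamines down. All 9 were found among the 24454 Entrez gene IDs of the deposited table, and all 9 were among the 12502 genes with enough reads to be tested.

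Ornithine decarboxylase (Odc1) makes putrescine from ornithine and is the classical rate-limiting step, and S-adenosylmethionine decarboxylase (Amd1) supplies the aminopropyl groups with which spermidine synthase (Srm) and spermine synthase (Sms) extend the chain. Antizymes bind ornithine decarboxylase and send it to the proteasome, the antizyme inhibitor Azin1 releases it, and polyamines themselves raise antizyme translation by a ribosomal frameshift. Sat1 acetylates spermidine and spermine, Smox oxidizes spermine to spermidine with release of hydrogen peroxide, and proliferating cells, mammary tumours among them, are known for high ornithine decarboxylase activity.

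The siNrf2 groups were cells of 3 mesenchymal breast cancer lines that received siRNA to Nrf2, the transcription factor of antioxidant and detoxification genes. The siCtl groups were the same lines given a non-targeting siRNA, both reagents came from Dharmacon, and all cells were taken 48 hours after transfection. MT∆Ecad stems from a tumour of the MMTV-Neu strain, and PyMT-1099 LT as well as Py2T LT from mammary tumours of MMTV-PyMT animals, in which the mammary-active MMTV promoter drives the oncogene named in the strain. The name MT∆Ecad marks the deletion of E-cadherin, whose gene Cdh1 stood there at 0.315 and 0.639 CPM in siNrf2 libraries and 0.454 and 0.332 CPM in siCtl libraries, against 12.5 to 62.1 CPM in the other lines. The labels do not say what LT marks. Each of the 6 groups had 2 libraries, made from separate samples that the series text calls biological duplicates.

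The gene rows of the 12 libraries summed to 27088970 to 37070635 reads, as recovered from the deposited CPM. The number of reads sequenced is not given by these sums. Expression was given as CPM (read counts scaled to a common library size), and effects are differences in log2(CPM + 1), siNrf2 minus siCtl. Nfe2l2, the gene of Nrf2, had 21.9 to 54.0 CPM in the siNrf2 libraries and 83.6 to 208.6 CPM in the siCtl libraries. It was left at 25.2% of its siCtl level in MT∆Ecad, at 26.8% in Py2T LT and at 26.1% in PyMT-1099 LT. Vim, a mesenchymal marker, stood at 1489 to 5534 CPM in all libraries, while Krt8, an epithelial keratin, was still at 770.0 to 2139 CPM. The leukocyte markers Ptprc, Adgre1 and Cd3e were below the floor of 3 reads in every group, which corresponded to at most 0.1107 CPM and covers counting error only. Cd68, also a leukocyte marker, stood at 1.62 to 6.25 CPM, and Lyz2 at up to 1.23 CPM. In MT∆Ecad Cd68 had 5.55 and 6.25 CPM in siNrf2 libraries and 3.823 and 3.765 CPM in siCtl libraries. The endothelial marker Cdh5 had 88.0 to 123.8 CPM in PyMT-1099 LT and at most 6.23 CPM in the other lines. Pecam1, Kdr and Tek had at most 0.205 CPM. In bulk RNA of this kind, fewer cells of a type and less RNA per cell cannot be told apart.

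Counting sets limits for 4 of the 9 genes. The deposited Amd1 row equalled that of its retrocopy Amd2 in 11 of 12 libraries and differed by 1 read in the other, so the rows cannot be told apart. Of the 81-base windows of Amd1 transcripts, the length of the reads, 79.1% also occurred in transcripts of other genes. The share was 36.3% for Oaz1, all of it in Oaz1-ps, 28% for Odc1, spread over 10 genes, and 27.5% for Sms, the whole of it found in Sms-ps. It was 4.17% for Oaz2, 1.95% for Sat1 and 0 for Srm, Azin1 and Smox. Gapdh, with 54.9% of its windows in other genes, was listed at only 83 to 122 reads per library, so levels of genes with many shared windows are uncertain.

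Among the siCtl libraries, spermidine synthase had the highest listed length-scaled level in every line, and spermine synthase, with 27.5% of its windows shared, the lowest. On the scale of CPM per kilobase of exon, Srm averaged 128.5 in MT∆Ecad, 115.4 in Py2T LT and 108.2 in PyMT-1099 LT. Azin1 followed in MT∆Ecad (64.2) and PyMT-1099 LT (57.3), while in Py2T LT Odc1 came next, at 73.7, ahead of Azin1 at 57.2. Odc1 stood below both Azin1 and Sat1 in the other lines, at 38.4 in MT∆Ecad and 38.7 in PyMT-1099 LT. Sms stood at 2.26 in MT∆Ecad, 3.02 in Py2T LT and 3.17 in PyMT-1099 LT.

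Most neighbours in this order were separated by their libraries. The spread between libraries does not cover errors from shared windows or from the exon length used. The order between genes is therefore uncertain, above all for Amd1, Oaz1, Odc1 and Sms. In PyMT-1099 LT the libraries of no neighbouring pair overlapped. The pairs whose libraries did overlap were Smox with Sat1 and Oaz1 with Oaz2 in Py2T LT, and in MT∆Ecad Sat1 with Odc1, Oaz2 with Amd1 and Amd1 with Smox. The siNrf2 libraries kept Srm at the top and Sms at the bottom in every line, with Srm at 86.5 CPM per kilobase in MT∆Ecad, 119.0 in Py2T LT and 97.0 in PyMT-1099 LT. In siNrf2 libraries of MT∆Ecad, Odc1 averaged 19.7 CPM per kilobase and its libraries overlapped those of Oaz2, which averaged 18.5.

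Between the lines in siCtl, 5 of the 9 genes differed by limma's F test with Benjamini-Hochberg adjustment: Odc1, Oaz1, Oaz2, Sat1 and Smox, with adjusted p of 0.000347, 0.00341, 0.00584, 0.00405 and 0.00094. Of all tested genes, 73.5% differed in this way, so a share of 5 in 9 is no more than the background. Against PyMT-1099 LT, Py2T LT had more Odc1 (log2 difference 0.92, SE 0.14), Oaz1 (1.01, SE 0.19) and Smox (1.01, SE 0.19) and less Sat1 (−0.47, SE 0.10). These 4 calls compare with 55.6% of all genes.

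MT∆Ecad set against Py2T LT gave the mirror image for the same 4 genes. Odc1 was lower by 0.93 on the log2 scale, Smox by 1.11 and Oaz1 by 0.54, and Sat1 was higher by 0.37, with Oaz2 higher by 0.34 (background 54.4%). The 2 comparisons share the Py2T LT libraries. MT∆Ecad against PyMT-1099 LT had higher Amd1 (0.57) and Oaz2 (0.42) and no other call (background 57.6%), with Oaz1 missing the threshold (0.47; adjusted p = 0.0656). For Odc1 that difference was −0.01, with a 95% interval of −0.34 to 0.31. With all 12 libraries, Azin1, Srm and Sms passed the test in no pair of lines. For Sms between MT∆Ecad and PyMT-1099 LT (−0.46) this depended on the libraries used. The same held for Oaz1 in that pair and for Amd1 between MT∆Ecad and Py2T LT (0.49). Leaving out a library ended 4 of these calls: Amd1 between MT∆Ecad and PyMT-1099 LT without any 1 of the libraries of MT∆Ecad or the siCtl libraries of PyMT-1099 LT (adjusted p 0.0671 to 0.216), and 3 between MT∆Ecad and Py2T LT. MT∆Ecad against Py2T LT lost Oaz1 without a siCtl library of PyMT-1099 LT, siCtl replicate 1 of Py2T LT or any of 3 libraries of MT∆Ecad (both siNrf2 and siCtl replicate 1; adjusted p 0.0515 to 0.215), and lost Oaz2 (0.062 and 0.0949) and Sat1 (0.0633 and 0.0859) without siCtl replicate 2 of Py2T LT or of MT∆Ecad.

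**Figure D1:**
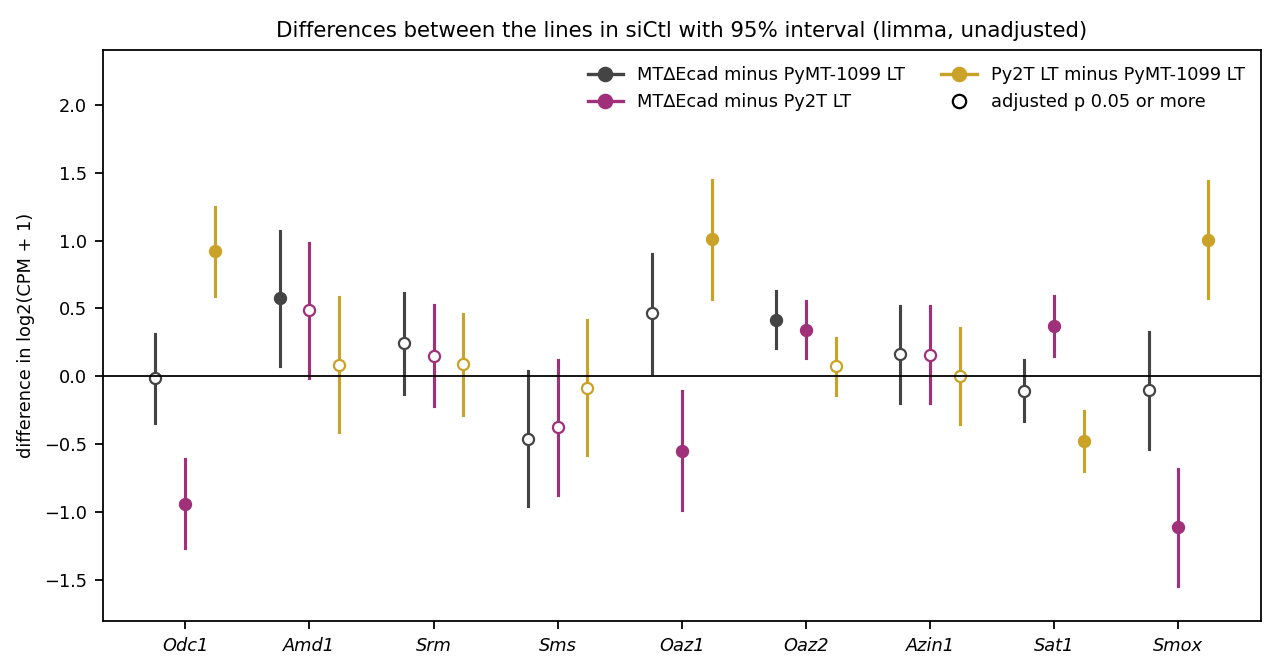
Differences in log2(CPM + 1) between the lines in siCtl libraries for the 9 genes, with limma's unadjusted 95% intervals (2 libraries per line); filled points have an adjusted p under 0.05. Odc1, Oaz1 and Smox are higher in Py2T LT than in PyMT-1099 LT by 0.92 to 1.01, and Oaz2 is higher in MT∆Ecad than in either other line.

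With siNrf2, the clearest movement among the 4 synthesis genes was that of Odc1 (Entrez 18263, GRCm38 chr12:17544808-17551502, plus strand). It was measured at 72.6 and 61.5 CPM in the siNrf2 libraries of MT∆Ecad, against 140.2 and 121.0 CPM in its siCtl libraries. In PyMT-1099 LT it had 111.1 and 90.0 CPM in siNrf2 libraries and 140.2 and 123.5 CPM in siCtl libraries. In Py2T LT it had 309.7 and 275.7 CPM in siNrf2 libraries and 271.0 and 230.6 CPM in siCtl libraries. Thus each siNrf2 library lay below both siCtl libraries in MT∆Ecad and PyMT-1099 LT, and above both in Py2T LT.

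Averaged over the lines, Odc1 fell by 0.37 on the log2 scale (SE 0.08; limma, adjusted p = 0.0232) and was the only 1 of the 9 genes called. Of all tested genes 12.3% were called in this comparison, with 6.26% of all genes called lower and 5.99% called higher. Leaving out 1 library ended the call in 5 of 12 fits: without siNrf2 replicate 2 (adjusted p = 0.0524) or siCtl replicate 1 (0.0667) of PyMT-1099 LT, siCtl replicate 1 of Py2T LT (0.0630), and siNrf2 replicate 2 (0.0738) or siCtl replicate 1 (0.0756) of MT∆Ecad.

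The lines gave different values. In MT∆Ecad Odc1 fell by 0.95 (SE 0.14; limma, adjusted p = 0.00339), to 51.3% of its siCtl mean, and this call was kept in each of the 12 fits without a library. In PyMT-1099 LT the difference was −0.39 (SE 0.14; adjusted p = 0.377), and in Py2T LT it was 0.22 (SE 0.14; adjusted p = 1). With the replicate number as a block, which pairs the siNrf2 and siCtl libraries of a line, Odc1 passed in PyMT-1099 LT (adjusted p = 0.0105; 9% of all genes) but not in Py2T LT (adjusted p = 0.0996).

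The difference itself passed for Odc1 alone among the 9. Limma's F test of the siNrf2 effect between lines gave an adjusted p of 0.045 (background 2.18%). The effect in MT∆Ecad was lower than that in Py2T LT by 1.18 (SE 0.20; 95% interval −1.64 to −0.72; adjusted p = 0.022; background 3.5%). MT∆Ecad minus PyMT-1099 LT was −0.56 (adjusted p = 0.257, background 1.81%; 0.00498 with the block, background 14.5%), and Py2T LT minus PyMT-1099 LT was 0.62 (adjusted p = 0.879; background 0.008%). The call against Py2T LT was lost without siCtl replicate 2 of Py2T LT (adjusted p = 0.0881), siNrf2 replicate 2 (0.104) or siCtl replicate 1 (0.102) of MT∆Ecad, and with edgeR (0.0516). The F test lay close to the threshold: its call was lost in each of the 12 fits without a library (adjusted p 0.0556 to 0.209) and with edgeR (0.123; background 0.16%), and was held by DESeq2 (0.00274; background 2.25%) and with the block (0.00118; background 19%).

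**Figure D2:**
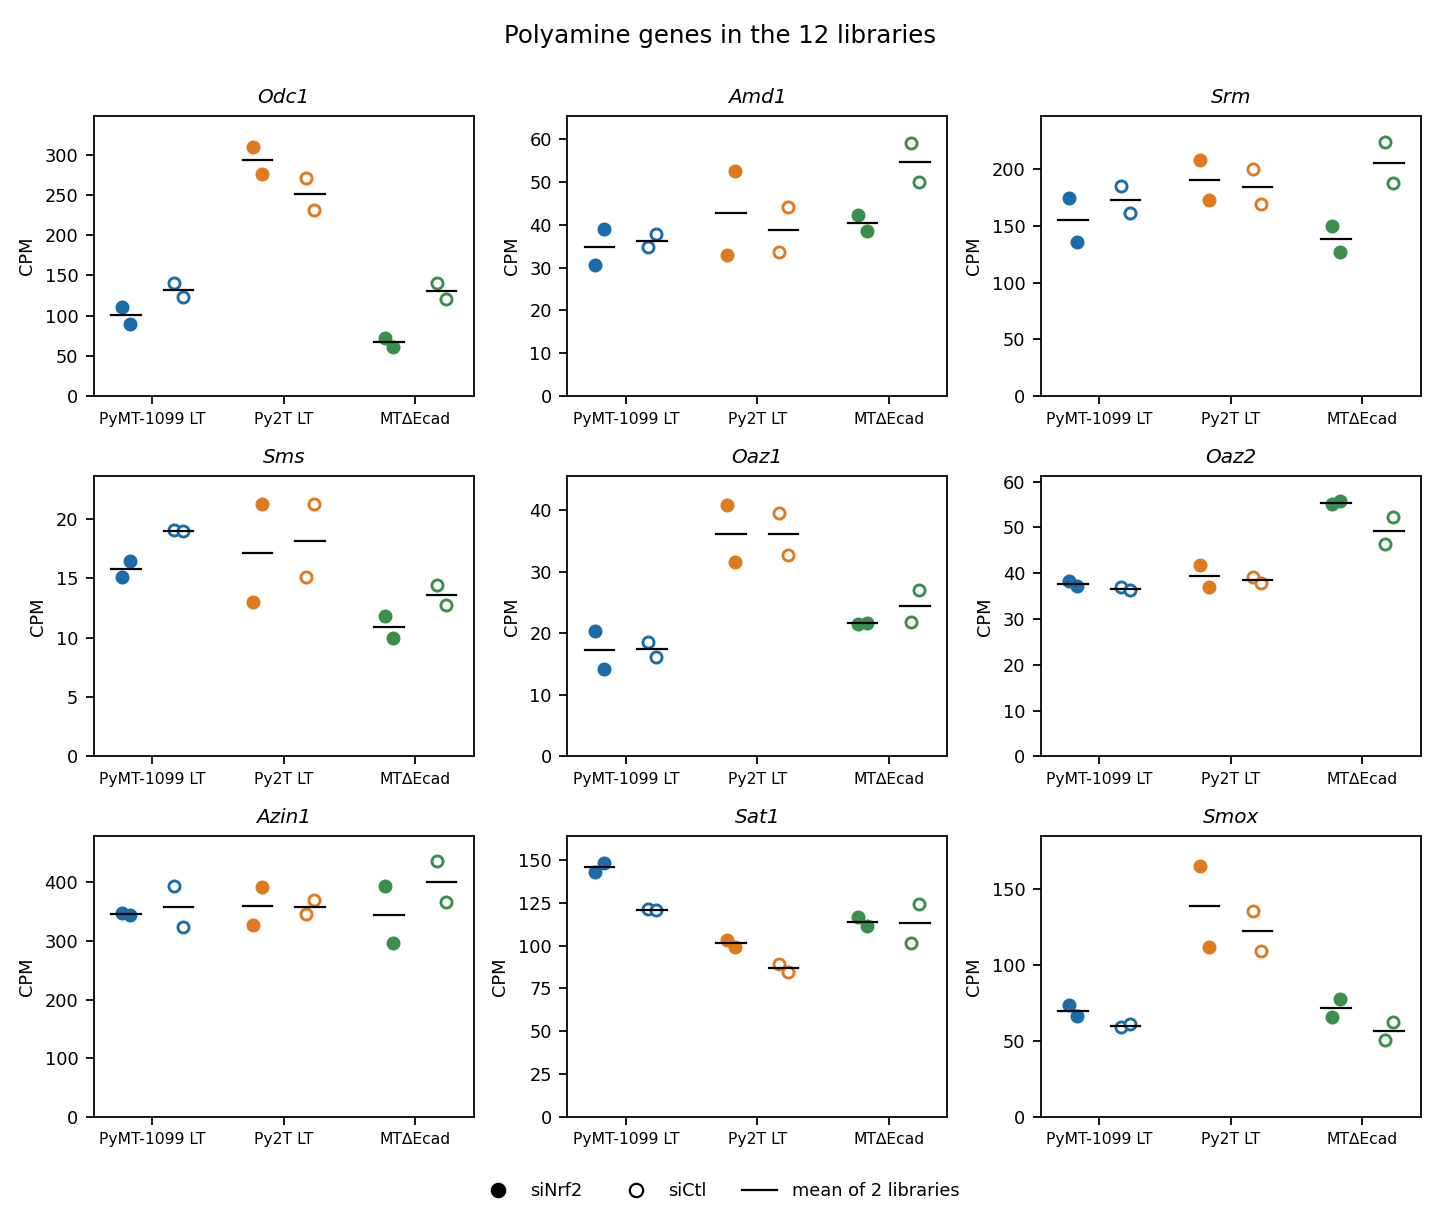
CPM of the 9 genes in each of the 12 libraries, by line; filled circles are siNrf2, open circles siCtl, and black lines the mean of 2 libraries. The Odc1 panel shows siNrf2 below siCtl in PyMT-1099 LT and MT∆Ecad and above it in Py2T LT.

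Srm (Entrez 20810, GRCm38 chr4:148591513-148594619, plus strand), which joins an aminopropyl group to putrescine, moved in the same line. It had 150.0 and 126.5 CPM in the siNrf2 libraries of MT∆Ecad and 223.5 and 187.4 CPM in siCtl libraries. The values were 174.2 and 135.9 CPM with siNrf2 against 184.7 and 161.5 CPM with siCtl in PyMT-1099 LT. They were 208.2 and 172.5 CPM with siNrf2 against 199.9 and 169.2 CPM with siCtl in Py2T LT. In MT∆Ecad the siNrf2 libraries were clear of the siCtl libraries, and in the other lines they overlapped.

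In MT∆Ecad Srm fell by 0.57 (SE 0.16; limma, adjusted p = 0.0433), which with Odc1 makes 2 of 9 genes called, both lower, where 17.3% of all genes were called, 8.42% as lower and 8.89% as higher. The Srm call was borderline, since edgeR gave an adjusted p of 0.0734 (background 12.8%) and 8 of the 12 fits without a library ended it: those without any siCtl library of PyMT-1099 LT or Py2T LT, or any library of MT∆Ecad (adjusted p 0.0547 to 0.278). The effect of siNrf2 on Srm did not pass the test of a difference between lines (adjusted p = 0.396), and passed it with the block (adjusted p = 0.0063). The Srm effect in MT∆Ecad minus that in Py2T LT was −0.61 (adjusted p = 0.196; 0.0029 with the block, background 22.9%), and minus that in PyMT-1099 LT it was −0.40 (adjusted p = 0.545; 0.0158 with the block). Averaged over the lines the Srm difference was −0.23 (adjusted p = 0.145; 0.00169 with the block).

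Amd1 (Entrez 11702, GRCm38 chr10:40287458-40302188, minus strand) had 42.3 and 38.6 CPM in siNrf2 libraries of MT∆Ecad, against 59.1 and 50.02 CPM in siCtl libraries. It had 30.7 and 38.9 CPM with siNrf2 against 34.7 and 37.7 CPM with siCtl in PyMT-1099 LT, and 32.9 and 52.5 CPM against 33.7 and 44.0 CPM in Py2T LT. Replicates differed from each other more than the siRNAs did in the last line, and the groups did not overlap in MT∆Ecad. There the difference was −0.42 (SE 0.22; limma, adjusted p = 0.235), and it passed with the block (adjusted p = 0.00821). These values hold for Amd1 and Amd2 alike.

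Sms (Entrez 20603, GRCm38 chrX:157443851-157492287, minus strand), the enzyme of the last step, had 11.8 and 10.0 CPM in siNrf2 libraries of MT∆Ecad and 14.4 and 12.8 CPM in siCtl libraries. In PyMT-1099 LT it had 15.1 and 16.5 CPM with siNrf2 against 19.0 CPM in both siCtl libraries, and in Py2T LT 13.0 and 21.3 CPM against 15.1 and 21.2 CPM. Sms was lower in 5 of 6 pairs of libraries with the same replicate number, while Oaz2 and Sat1 were each higher in 5 of 6. The share of all genes with such a count was not taken. The average difference was −0.22 (SE 0.13; limma, adjusted p = 0.307), and −0.30 in MT∆Ecad (adjusted p = 0.424). With the block both passed, at adjusted p of 0.0105 and 0.0229.

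**Figure D3:**
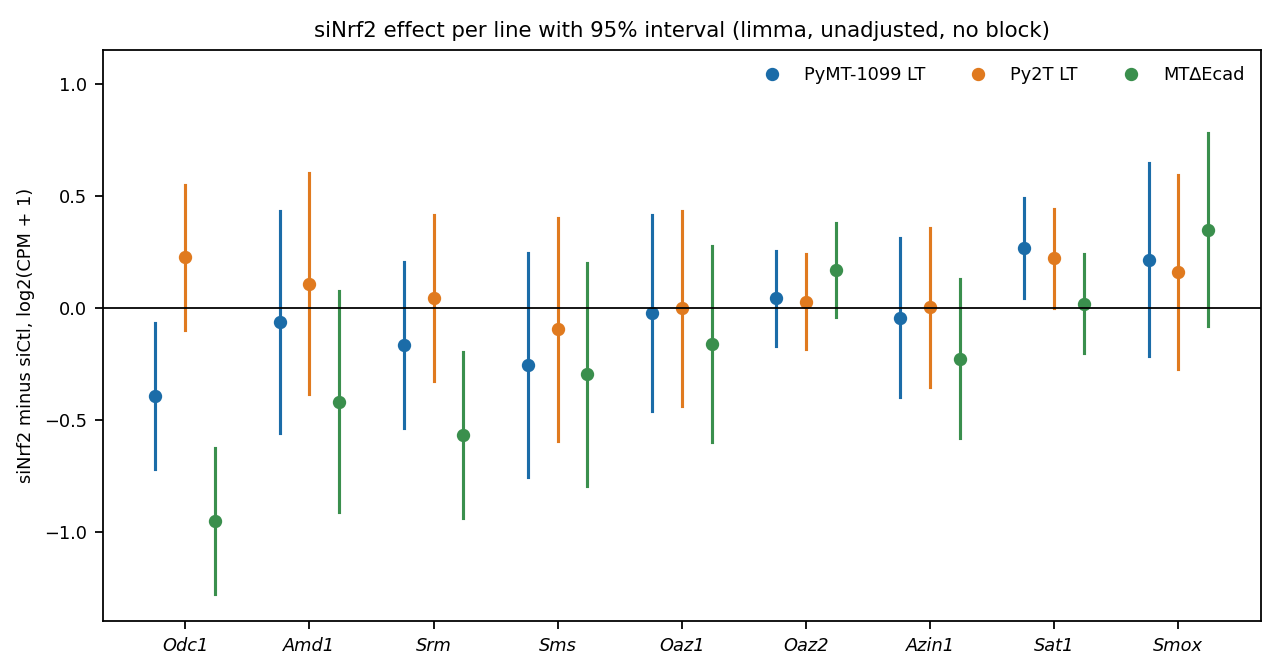
siNrf2 minus siCtl in log2(CPM + 1) for each gene and line, with limma's unadjusted 95% intervals from the fit without a block. Only the MT∆Ecad intervals of Odc1 and Srm belong to differences with an adjusted p under 0.05.

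The antizymes and their inhibitor did not pass the test in any line. Oaz1 (Entrez 18245, GRCm38 chr10:80826656-80829290, plus strand) had 21.57 and 21.64 CPM in siNrf2 libraries of MT∆Ecad against 21.8 and 27.1 CPM in siCtl libraries. It had 20.4 and 14.2 CPM with siNrf2 against 18.6 and 16.2 CPM with siCtl in PyMT-1099 LT, and 40.8 and 31.5 CPM against 39.4 and 32.7 CPM in Py2T LT. Its average difference of −0.06 had a 95% interval of −0.32 to 0.19. The second antizyme, Oaz2 (Entrez 18247, GRCm38 chr9:65676548-65690300, plus strand), had 55.0 and 55.7 CPM in siNrf2 libraries of MT∆Ecad against 46.3 and 52.2 CPM in siCtl libraries, and its average difference was 0.08 (interval −0.04 to 0.20).

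In the other lines Oaz2 had 38.2 and 37.2 CPM with siNrf2 against 36.9 and 36.3 CPM with siCtl in PyMT-1099 LT, and 41.8 and 36.9 CPM against 39.2 and 37.9 CPM in Py2T LT. Azin1 (Entrez 54375, GRCm38 chr15:38487430-38519294, minus strand), which resembles ornithine decarboxylase but lacks its activity, had 393.5 and 296.6 CPM in siNrf2 libraries of MT∆Ecad against 436.1 and 366.9 CPM in siCtl libraries. In PyMT-1099 LT it had 347.4 and 344.6 CPM with siNrf2 against 393.5 and 323.6 CPM with siCtl, and in Py2T LT 326.7 and 392.1 CPM against 345.4 and 370.3 CPM. The groups of Azin1 overlapped in every line. Its difference in MT∆Ecad was −0.23 (SE 0.16; limma, adjusted p = 0.388), and it passed narrowly with the block (adjusted p = 0.0496).

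The antizyme genes carry the frameshift site that sets their translation, and it is shown because the RNA level alone does not give the protein made. The capitals mark the TGA stop codon that the ribosome must slip past by a base to make full-length antizyme (GENCODE M21 transcripts, GRCm38, plus strand, chr10:80828280-80828308 for Oaz1 and chr9:65686257-65686285 for Oaz2).
Oaz1: cctcggtggtgctccTGAtgtccctcacc
Oaz2: cctctgtggtgctccTGAtgcccctcacc
The stretches were identical at 27 of 29 bases. Counted in frame from the annotated start, the stop is codon 67 or 69 of Oaz1, depending on the transcript, and codon 33 of Oaz2. The coding transcripts of the annotation skip a base there, so the stretches were read from transcripts annotated as retained introns. Neither frameshifting nor protein was measured.

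The catabolic genes had positive average differences that did not pass the test without the block. Sat1 (Entrez 20229, GRCm38 chrX:155213126-155216449, minus strand), the acetyltransferase, had 143.4 and 148.6 CPM in siNrf2 libraries of PyMT-1099 LT against 121.5 and 120.8 CPM in siCtl libraries. It had 103.6 and 99.4 CPM with siNrf2 against 89.6 and 84.5 CPM with siCtl in Py2T LT, and 117.0 and 111.3 CPM against 101.9 and 124.6 CPM in MT∆Ecad. The siNrf2 libraries lay above the siCtl libraries in both MMTV-PyMT lines and among them in MT∆Ecad. The average difference was 0.17 (SE 0.06; limma, adjusted p = 0.0843), and it passed with the block (adjusted p = 0.0275) or without siCtl replicate 2 of MT∆Ecad (adjusted p = 0.0351).

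Smox (Entrez 228608, GRCm38 chr2:131491858-131525183, plus strand), spermine oxidase, had 73.8 and 66.0 CPM in siNrf2 libraries of PyMT-1099 LT against 59.1 and 61.0 CPM in siCtl libraries. It had 165.2 and 111.9 CPM with siNrf2 against 135.4 and 109.3 CPM with siCtl in Py2T LT, and 65.7 and 77.7 CPM against 50.2 and 62.1 CPM in MT∆Ecad. It was the only gene of the 9 that was higher in 6 of 6 pairs with the same replicate number, as were 7.77% of all tested genes. The average difference was 0.24 (SE 0.11; limma, adjusted p = 0.188), and it passed with the block (adjusted p = 0.00605), as did that in MT∆Ecad (0.35; adjusted p = 0.258 without and 0.0103 with the block). It also passed on average without siNrf2 replicate 2 of Py2T LT (adjusted p = 0.0383).

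**Figure D4:**
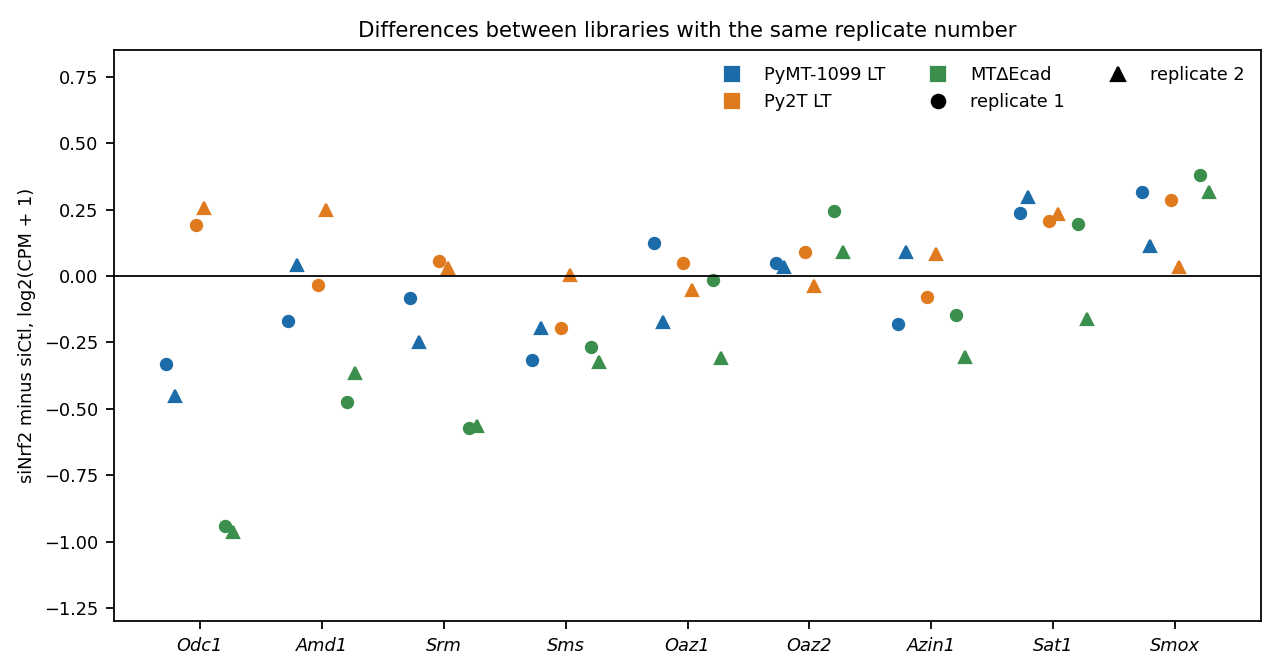
siNrf2 minus siCtl in log2(CPM + 1) between libraries of a line with the same replicate number (circles replicate 1, triangles replicate 2). All 6 Smox differences lie above 0, as do 5 of 6 for Oaz2 and for Sat1, and 5 of 6 Sms differences lie below it. The Odc1 differences of Py2T LT lie opposite to those of the other lines.

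Counted over the 9 genes, the call lists were short and depended on the pairing. Without the block the calls were 1 of 9 on average, 0 of 9 in PyMT-1099 LT (background 0.52%), 0 of 9 in Py2T LT (0.152%) and 2 of 9 in MT∆Ecad. EdgeR and DESeq2 also called 0 of 9 in each MMTV-PyMT line, and limma's unadjusted p was under 0.05 for 2 of 9 in PyMT-1099 LT, Odc1 and Sat1, and for 0 of 9 in Py2T LT. With the block they were 5 of 9 on average (Odc1, Srm and Sms lower, Sat1 and Smox higher; background 40%), 1 of 9 in PyMT-1099 LT (9%), 0 of 9 in Py2T LT (1.02%) and 6 of 9 in MT∆Ecad (Odc1, Amd1, Srm, Sms and Azin1 lower, Smox higher; background 42.6%). Against these backgrounds, nothing particular to the pathway is read from the counts.

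In MT∆Ecad, siNrf2 libraries lay wholly below siCtl libraries for 5 of 9 genes (all genes 32.8%) and wholly above for Oaz2 and Smox (32.5%). In PyMT-1099 LT they lay below for Odc1 and Sms (17.1%) and above for Oaz2, Sat1 and Smox (20%), and in Py2T LT below for 0 (15.9%) and above for Odc1 and Sat1 (7.63%). The median difference of the 9 genes was −0.23 in MT∆Ecad, 0.04 in Py2T LT, −0.04 in PyMT-1099 LT and −0.09 on average. Over all tested genes the medians were 0 in MT∆Ecad, −0.02 in Py2T LT, −0.0004 in PyMT-1099 LT and −0.0091 on average.

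Other marker levels moved with siNrf2 in MT∆Ecad, and some of them in the other lines too. The summed level of 7 mesenchymal markers in MT∆Ecad, 7 of 7 at 1 CPM or more, was 14790 to 15580 CPM in siNrf2 libraries and 10650 to 11150 CPM in siCtl libraries. Most of that gap was Fn1, at 8807 and 9687 CPM in siNrf2 libraries and 5248 and 5690 CPM in siCtl libraries, while Zeb2 was lower, at 44.1 and 38.6 CPM in siNrf2 libraries and 69.8 and 47.3 CPM in siCtl libraries. That of 5 fibroblast markers, 2 of 5 at 1 CPM or more and Dcn, Lum and Thy1 below the floor, was 1093 to 1240 CPM in siNrf2 libraries and 729.9 to 866.3 CPM in siCtl libraries. The 7 epithelial markers, 3 of 7 at 1 CPM or more and Ocln and Esrp1 below the floor, summed to 1285 to 1293 CPM in siNrf2 libraries and 1125 to 1230 CPM in siCtl libraries. Krt8 held most of that sum, and Krt14 was lower, at 47.4 and 50.1 CPM in siNrf2 libraries and 141.8 and 122.6 CPM in siCtl libraries. In PyMT-1099 LT the mesenchymal sum was 9922 to 10390 CPM in siNrf2 libraries and 9230 to 9459 CPM in siCtl libraries. The epithelial sum there was 4534 to 5404 CPM with siNrf2 and 3770 to 4373 CPM with siCtl. In Py2T LT the mesenchymal sum was 11550 to 11880 CPM with siNrf2 and 10630 to 11450 CPM with siCtl, and the epithelial sums overlapped. The part of these levels in the falls of Odc1 and Srm was not tested.

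Around the 9 genes, 6 lists of neighbouring functions were counted. Of 10 tested genes that supply ornithine and arginine, 0 passed on average (limma; 1 with an unadjusted p under 0.05, and 0 by edgeR or DESeq2) and their median difference was 0.05. Ass1, argininosuccinate synthase, rose by 0.45 in MT∆Ecad (SE 0.12; limma, adjusted p = 0.0299), with 40.0 and 40.9 CPM in siNrf2 libraries and 28.7 and 30.0 CPM in siCtl libraries, and was listed at 0 in all 4 libraries of PyMT-1099 LT. This call was lost in 6 of 12 fits without a library (adjusted p 0.0514 to 0.17) and with edgeR (0.0802) or DESeq2 (0.0579). Limma without the block called 17.3% of all genes in MT∆Ecad. With the block 1 of the 10 was higher on average (background 40%), and 2 were higher and 1 lower in MT∆Ecad (background 42.6%). Of 13 genes of the methionine cycle and of the salvage of methylthioadenosine, the by-product of spermidine and spermine synthesis, 0 were higher and 1 lower on average (background 12.3%).

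That gene was Adi1, a dioxygenase of the salvage route, which fell by 0.25 (SE 0.07; limma, adjusted p = 0.0447), a call lost in 11 of 12 fits without a library and with edgeR (adjusted p = 0.0843) or DESeq2 (0.0862). In MT∆Ecad the salvage enzyme Enoph1 fell by 0.46 (adjusted p = 0.0151), with 40.3 and 37.0 CPM in siNrf2 libraries and 55.0 and 51.9 CPM in siCtl libraries. Mat2a, which makes the S-adenosylmethionine that Amd1 uses, fell there by 0.48 (adjusted p = 0.0258), with 200.6 and 175.9 CPM in siNrf2 libraries against 290.4 and 238.8 CPM in siCtl libraries. Both calls were lost in 2 of 12 fits without a library. Limma on the 4 libraries of the line alone called neither Enoph1 (adjusted p = 0.0524) nor Mat2a (0.104). Without the block 17.3% of all genes were called in MT∆Ecad. With the block the list had 1 higher and 3 lower of 13 on average, where 40% of all genes were called, and 0 higher and 6 lower in MT∆Ecad, where 42.6% were called. Its median difference was −0.07 on average and −0.14 in MT∆Ecad.

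Among 4 tested genes of further polyamine control and catabolism, with a median difference of 0.12, 0 passed on average in limma, edgeR or DESeq2 (0 with an unadjusted p under 0.05), and the antizyme inhibitor Azin2 rose in MT∆Ecad by 0.94 (SE 0.27; limma, adjusted p = 0.0428). It had 9.78 and 15.3 CPM in siNrf2 libraries of that line and 4.63 and 7.53 CPM in siCtl libraries, and the call was lost in 8 of 12 fits without a library (adjusted p 0.0585 to 0.3). The Azin2 call was also lost with edgeR (adjusted p = 0.0547) and, in limma, with a pseudocount of 0.25 (0.0568), without a filter (0.0711) and for the 4 libraries of the line alone (0.152). The share of all genes called in MT∆Ecad was 17.3%. With the block this list had 0 calls on average (background 40%), and 2 higher and 1 lower in MT∆Ecad (background 42.6%). The lower one was Amd2, whose row cannot be told apart from that of Amd1. None of 7 polyamine transport genes and none of 4 genes of hypusine and eIF5A, the translation factor modified with spermidine, passed limma's test on average or in a line, with median differences of 0.12 and −0.12. On average 0 of either list had an unadjusted p under 0.05, while in MT∆Ecad 2 transport genes and 1 eIF5A gene did. EdgeR called 0 of both lists there and DESeq2 called 2 transport genes. Over all genes DESeq2 called 1864 of 12502 in MT∆Ecad. With the block 2 of 7 transport genes were higher on average, Cav1 and Slc3a2, and 1 of 4 hypusine and eIF5A genes was lower, Eif5a (background 40%). In MT∆Ecad the block called 3 transport genes higher and 1 lower of 7, and 2 of the 4 hypusine and eIF5A genes lower (background 42.6%).

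Odc1 is a textbook target of MYC, and of 11 tested genes of the MYC network 2 rose and 0 fell on average, where 12.3% of all genes were called, with a median difference of −0.02. With the block 3 were higher and 3 lower, both on average (background 40%) and in MT∆Ecad (42.6%). DESeq2 called 3 of the 11 in MT∆Ecad (1864 of all 12502 genes), and limma without the block called 2 (background 17.3%). Mxd4 and Mxd1, which compete with MYC for its partner MAX, rose by 0.75 (SE 0.15; adjusted p = 0.0169) and 0.51 (SE 0.10; adjusted p = 0.0145) in limma's fit, and the Mxd4 call was lost in 3 of 12 fits without a library (adjusted p 0.0523 to 0.0581). In MT∆Ecad Mxd4 had 29.8 and 37.7 CPM in siNrf2 libraries against 10.7 and 14.0 CPM in siCtl libraries. Myc itself had 90.8 and 51.9 CPM in siNrf2 libraries of MT∆Ecad against 139.5 and 94.4 CPM in siCtl libraries.

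In PyMT-1099 LT Myc had 205.6 and 173.7 CPM with siNrf2 against 222.8 and 214.0 CPM with siCtl, and in Py2T LT 307.7 and 280.3 CPM against 303.5 and 290.9 CPM. Its levels were thus highest in Py2T LT, as were those of Odc1, and its siNrf2 libraries lay below the siCtl libraries in the other lines. The genes differed elsewhere. In siCtl libraries Myc averaged 218.4 CPM in PyMT-1099 LT and 117.0 CPM in MT∆Ecad, while Odc1 averaged 131.8 and 130.6 CPM. With siNrf2 in Py2T LT, Odc1 was at 116.7% of its siCtl mean and Myc at 98.9%. The Myc difference in MT∆Ecad was −0.73 (SE 0.25; limma, adjusted p = 0.0734) and on average −0.32 (adjusted p = 0.177), and both passed with the block (adjusted p = 0.000397 and 0.00163). Over the 12 fits without a library, the Myc difference ranged from −1.13 to −0.34 in MT∆Ecad and from −0.45 to −0.19 on average. The largest falls came without siNrf2 replicate 1 of MT∆Ecad. DESeq2 with all libraries called the difference in MT∆Ecad (−0.69; adjusted p = 0.0483). Whether the level of Myc has a part in that of Odc1 was not tested.

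The genes most like Odc1 were ranked by Pearson's r over 11173 genes with a mean of at least 2 CPM, as a description. Over the 12 libraries, which share their 3 lines, the 5 highest were Nsun5 (r = 0.989), Pa2g4, Rsl24d1, Zfp384 and Dusp9. Over the 6 differences between same-number libraries, Ing1 (r = 0.995), Sf3b3, Urb1 and Eef1b2 were among the 5 highest. Among the other pathway genes Srm was most like Odc1 in these 6 differences (r = 0.970, rank 70), while Oaz2 (r = −0.66) and Smox (r = −0.60) ran the other way. For Sat1 the 5 highest were Arf3 (r = 0.933), Plcxd2, P4hb, Actr1a and 0610012G03Rik over the libraries, and Zcchc3 (r = 0.987), Rpl10, Hacd2, Arv1 and Rnf111 over the differences.

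Sequence features were read from the transcripts and promoters of the 9 genes. The 7-mers ACCATTT and GAGAAGT, singled out in earlier results of these data, were searched in 3′ UTRs on the transcript strand. On that strand ACCATTT occurred in Odc1 and in Sms, GAGAAGT in Sms, and neither in the other 7 genes, against 13.7% and 11.9% of 11820 tested genes with a 3′ UTR. The sites are shown because Odc1 carries the main change (GENCODE M21, GRCm38, chr12:17550798-17550826 plus strand for Odc1, chrX:157444670-157444698 and chrX:157445761-157445789 minus strand for Sms, the 7-mer in capitals).
Odc1 ACCATTT: catttggggggACCATTTaacttactgct
Sms ACCATTT: taattcttgttACCATTTaagtaaagaaa
Sms GAGAAGT: tttgttctggaGAGAAGTtcctgatagtg

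Tested genes with ACCATTT had a median average difference of −0.07 (n = 1622) and those without it 0.0012 (n = 10198). The medians with and without the 7-mer were −0.05 and 0.0056 for MT∆Ecad, −0.08 and 0 for PyMT-1099 LT, and −0.05 and −0.02 for Py2T LT. For GAGAAGT the median average differences were −0.04 with it (n = 1402) and −0.0029 without it (n = 10418). Both 7-mers were singled out in earlier results of these data. The medians are therefore not independent of that choice and lend it no support. The part of ACCATTT in the Odc1 values was not tested.

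RefSeq promoters of GRCm38.p6, from 250 bases before to 50 after the start, were at hand for 7 of the 9 genes, all but Srm and Azin1. They were searched on both strands for CACGTG, the E-box that MYC and MAX bind, and for TGACNNNGC, the core of the antioxidant response element that NRF2 binds. CACGTG occurred in 1 of 2 Sms promoters, and TGACNNNGC in those of Oaz1 and Smox, against 8.09% and 14% of 27025 genes. The matches are shown for NRF2, to which the siRNA was directed, and for MYC, whose network was counted above (chrX:157492465-157492493 minus strand for Sms, chr10:80826633-80826661 plus strand for Oaz1, chr2:131491659-131491687 plus strand for Smox, the motif in capitals).
Sms: cagcggggttCACGTGcatttaaagaaaa
Oaz1: tggcctgccgTGACGACGCatataaaagt
Smox: cgcagcgctcTGACAGTGCcggaagacct
The motif began at −196, −13 and −193 from the start in these promoters. Sites outside these promoters, such as in introns, were not searched. Whether any match is bound or has a part in the levels was not tested.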

How the data were processed

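Ribosomal RNA was depleted and stranded libraries were read as single reads of 81 nt. Per the submitters' processing notes, STAR and mm10 were used; the counting tool, annotation and use of strand are not given in the sources used here. The authors deposited CPM per Entrez gene ID, and 100% of the values gave whole reads (tolerance 0.01 of a read). Of 24454 IDs, 24374 matched RefSeq GRCm38.p6 and 7 more GENCODE M21. Libraries were grouped by line and siRNA as labelled. Genes reaching CPM 1 in 2 or more libraries were tested on log2(CPM + 1), which understates changes of low genes, with limma 3.58.1 in R 4.3.3 (group means, trended variance, 6 residual degrees of freedom, two-sided, Benjamini-Hochberg over 12502 genes, threshold 0.05). P-values reflect the spread between these duplicates. Same-numbered siNrf2 and siCtl libraries of a line deviated together (r = 0.625 in MT∆Ecad, 0.846 in Py2T LT, 0.778 in PyMT-1099 LT), so a fit with the replicate number as a block (3 residual degrees of freedom) is given where it changes a call. The labels do not say what the numbers mark. Alternatives were other pseudocounts and filters, TMM rescaling, edgeR 4.0.16 and DESeq2 1.42.0 on the recovered reads, each line alone, and leaving out each library. On recovered reads edgeR called 856 genes and DESeq2 1264 for the average effect. The fits were tested on simulated counts with the same planted change in every line. Those counts had no shared deviation by replicate number and no difference between lines, so the test covers neither. Length-scaled levels divide CPM by the merged exons of GENCODE M21. The 9 genes and 6 lists were chosen with earlier results of these data known. Named were these 9, Nfe2l2, Myc, listed genes that passed on average or in a line (at most 4 per list) and the 5 genes most like Odc1 and Sat1, of which 1 is not reported here; genes called with the block alone were named after their values were seen.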

Additional observations from a re-analysis of the deposited data

Results flagged for a closer look

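The siNrf2 effect on Odc1 differed between the lines by limma's F test (adjusted p = 0.045, n = 2 libraries per group). The call lay close to the threshold. It was held with DESeq2 and with the block. It was lost with a pseudocount of 0.25, without a filter, with CPM of at least 5, with TMM and with edgeR (adjusted p 0.0532 to 0.123). Its dependence on single libraries is given above. Odc1 was at 51.3% of its siCtl mean in MT∆Ecad, at 76.2% in PyMT-1099 LT and at 116.7% in Py2T LT. The siNrf2 libraries were lower than the siCtl libraries in 2 of 2 same-number pairs of MT∆Ecad and of PyMT-1099 LT, and higher in 2 of 2 pairs of Py2T LT.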

How the results depend on the processing

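The number of the 9 genes called changed as follows. With the replicate block it was 5 for the average effect, 1 in PyMT-1099 LT, 6 in MT∆Ecad and 2 for the difference between lines (Odc1 and Srm), and it added Amd1 for MT∆Ecad minus Py2T LT (adjusted p = 0.0246). Its other changes of calls of the 9 genes stand beside the results. The siCtl comparisons between lines have no paired fit, since the pairs lie within a line. Their F test called 6 of the 9 genes with TMM, edgeR and DESeq2, with Amd1 added. Between MT∆Ecad and PyMT-1099 LT, Amd1 was lost without a filter (adjusted p = 0.0674) and Oaz1 was called by DESeq2 (0.0417). Between MT∆Ecad and Py2T LT, Oaz1 was lost without a filter (0.055) and with TMM (0.0508), and Amd1 was called by DESeq2 (0.0391). For the siNrf2 effect in MT∆Ecad the count was 1 without a filter, with TMM rescaling, with edgeR and for the 4 libraries of the line alone, each time Odc1. For the difference between lines it was 0 with a pseudocount of 0.25, without a filter, with CPM of at least 5, with TMM rescaling and with edgeR (adjusted p of Odc1 0.0532 to 0.123). Without 1 library each, the counts ranged from 0 to 2 for the average, 1 to 2 in MT∆Ecad and 0 to 0 for the difference between lines. The cause was not tested.

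None of the values that changed sign was called in the fit reported. In PyMT-1099 LT, Oaz1 was 0.0119 with DESeq2. In Py2T LT it was 0.0134 with TMM, 0.0255 with edgeR and 0.0355 with DESeq2. The siCtl difference of Odc1, MT∆Ecad minus PyMT-1099 LT, was 0.0253 with TMM, 0.0229 with edgeR and 0.0354 with DESeq2. Leaving out a library gave these ranges of log2 differences. Oaz1 on average ranged from −0.14 to 0.0177. In PyMT-1099 LT, Amd1 ranged from −0.23 to 0.10, Srm from −0.34 to 0.0124, Oaz1 from −0.27 to 0.22 and Azin1 from −0.19 to 0.10. In Py2T LT, Amd1 ranged from −0.22 to 0.44, Srm from −0.0917 to 0.18, Sms from −0.43 to 0.24, Oaz1 from −0.19 to 0.18, Oaz2 from −0.06 to 0.11, Azin1 from −0.13 to 0.13 and Smox from −0.12 to 0.44. Sat1 in MT∆Ecad ranged from −0.13 to 0.16. In siCtl, MT∆Ecad minus PyMT-1099 LT ranged from −0.12 to 0.0915 for Odc1, −0.25 to 0.04 for Sat1 and −0.25 to 0.0488 for Smox. Py2T LT minus PyMT-1099 LT ranged from −0.10 to 0.28 for Amd1, −0.0296 to 0.21 for Srm, −0.32 to 0.15 for Sms and −0.14 to 0.14 for Azin1.

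Over all tested genes the calls were 1532 on average (645 to 4997 over the alternatives), 65 in PyMT-1099 LT (0 to 1125), 19 in Py2T LT (0 to 127), 2164 in MT∆Ecad (550 to 5324) and 273 for the difference between lines (20 to 2377), the highest each time with the replicate block. Precision within a line is limited by 2 libraries a group: the 95% interval of the Odc1 effect in Py2T LT ran from −0.10 to 0.55.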
